A study of Drosophila melanogaster with 35 samples.

Results

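Serpins, Jonah proteases and trypsins were taken from a table of gene expression in adult fly heads as every row whose gene symbol begins with Spn or Jon followed by a number, or ends in Try. The rule gave 50 of the 14279 genes in the table: 26 serpins, 14 Jonah proteases and 10 trypsins. Within these families it used names alone, but the families themselves were picked with earlier results of these data known. The Toll inhibitor necrotic (nec) is also a serpin but carries another symbol, and it is given below only as a neighbour of members.

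Serpins are inhibitors of serine proteases that trap the protease after it cuts an exposed loop. In insects they are best known for holding back the protease cascades that activate Toll signalling and melanization, the defence in which phenoloxidases deposit melanin at wounds and around microbes. The Jonah proteases and the trypsins are secreted serine proteases of the chymotrypsin fold, and in Drosophila they are best known as digestive enzymes made by the midgut.

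RNA from adult heads of Drosophila melanogaster aged 1 week was sequenced in 35 libraries of 12 genotypes, all carrying Repo-LexA, which drives expression in glia. The 17 GMR libraries also carried GMR-gal4, active in photoreceptors, and the 18 elav libraries carried elav-gal4, active in neurons. The study asked how human TREM2 and its adaptor TYROBP in glia change gene expression in flies whose neurons make Aβ42 or whose retina makes tau, and whether the R47H variant of TREM2, a risk variant for Alzheimer's disease, acts differently from TREM2WT. More than 100 flies were collected for each genotype, and nothing in the sources says that replicate libraries came from separate cultures, so p-values measure the spread between these libraries.

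Among the GMR flies, tau/TREM2R47H carried Repo-LexA, GMR-gal4, UAS-Tau and LexAop2-TREM2-R47H,TYROBP (3 libraries), tau/TREM2WT the same with LexAop2-TREM2-WT,TYROBP (3 libraries), and tau flies UAS-Tau with no LexAop2 transgene (2 libraries). TREM2R47H and TREM2WT flies carried the LexAop2 transgenes without UAS-Tau (3 libraries each), and GMR controls carried only Repo-LexA and GMR-gal4 (3 libraries). The elav flies followed the same plan on an elav-gal4,Repo-LexA/Y background, with UAS-Aβ42 in place of UAS-Tau: Aβ42/TREM2R47H, Aβ42/TREM2WT, Aβ42, TREM2R47H, TREM2WT and control, with 3 libraries each. TYROBP was present wherever TREM2 was. The controls carried no responder transgene, so an effect of a transgene product and an effect of the chromosome or insertion site that brought it cannot be told apart. In whole heads, fewer cells of a type and less RNA per cell cannot be told apart either.

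Values are log2 expression as deposited, normalised between libraries and adjusted for RNA integrity number (RIN) by the authors. Serpin values per library are given at equal RIN, that is, after removing the slope on RIN that the linear model fitted within genotypes, so that differences between genotype means equal the tested log2 differences. Protease values are given as deposited. Over all 35 libraries the deposited values had no slope on RIN left (at most 3.0e-14). Fits without the RIN covariate, named below, used these adjusted values, so they do not undo the authors' adjustment. A member was called when its adjusted p (limma, Benjamini-Hochberg over all 14279 genes) was under 0.05 and its fold change above 1.2. A gene with few or no reads sits near −6 on this scale: the 1st percentile of a library lay between −7.10 and −5.75.

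The tissue markers fitted the label of adult heads, with ninaE, the major rhodopsin of photoreceptors, between 13.9 and 14.7 and the glial marker repo between 6.46 and 6.95 in all 35 libraries. The 2 driver sets stood apart in genes tied to sex. In deposited values the male-specific dosage compensation RNA roX1 was at 3.62 to 8.52 in GMR libraries and 10.6 to 12.3 in elav libraries. The female yolk protein gene Yp1 was at 7.64 to 17.7 in GMR libraries and −0.758 to 6.06 in elav libraries. Within genotypes the slope on RIN was −2.51 for roX1 and 5.582 for Yp1. With that slope removed, GMR genotype means ran from 5.495 to 5.807 for roX1 and from 13.42 to 13.89 for Yp1. The SD between libraries of a GMR genotype was then at most 0.111 for roX1 and 0.279 for Yp1. The study's methods give male flies throughout and the GMR labels state no sex, so a difference between the driver sets cannot be told apart from a difference in sex. Within the elav set the yolk protein genes also set the controls apart. At equal RIN, as defined above, Yp1 was at 5.53, 5.46 and 0.95 in elav controls and between 0.74 and 1.70 in the other 15 elav libraries, so control replicates 1 and 2 stood above all other elav libraries. Yp1, Yp2 and Yp3 were called lower in all 5 other elav genotypes than in the elav control, Yp1 by −3.15 to −2.53. The part of this in the elav results was not tested, and each member call against the elav control that was lost without these 2 libraries is named where it is described. No 2 libraries held identical values. RIN ran from 5.6 to 7.5. In the elav set it was 6.4 to 6.8 in controls and 6.9 to 7.1 in TREM2WT and TREM2R47H flies, which therefore did not overlap controls. Aβ42/TREM2WT flies, at 7.0 to 7.1, overlapped neither elav controls nor Aβ42 and Aβ42/TREM2R47H flies, both at 6.6 to 6.9. In the GMR set tau/TREM2WT flies, at 5.6 to 6.4, overlapped neither GMR controls (6.8 to 6.9) nor tau/TREM2R47H flies (6.5 to 7.0). The part of RIN in the comparisons of these groups was not tested.

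Levels per kilobase of gene set the families apart. The highest serpin was Spn43Ab, with a mean deposited log2 level of 8.41 (8.0 per kilobase) and a range of 8.19 to 8.62 over the 35 libraries. It was followed by Spn42Dd (6.03 per kilobase) and by Spn77Ba (5.18 per kilobase), a regulator of tracheal melanization. Spn42Da, an inhibitor of furin-type proteases (5.13 per kilobase), Spn27A, an inhibitor that acts on both melanization and Toll activation in the embryo (5.06 per kilobase), and Spn88Ea (5.0 per kilobase) were close behind. These 6 serpins varied between libraries of 1 genotype by an SD of 0.0427 to 0.0851. At the other end, Spn28F, Spn38F and Spn100A had mean levels of −4.09, −4.53 and −3.73 per kilobase, and 11 of the 26 serpins had a mean deposited level under 0.

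Most proteases were low in heads. Of the 14 Jonah proteases, 10 had a mean deposited level under −2, as did 7 of the 10 trypsins, against 2394 of all 14279 genes. Jon74E was the highest Jonah protease (0.55 per kilobase), followed by Jon44E (−0.68) and Jon65Aiii (−1.01). Among trypsins the order was alphaTry (−1.22 per kilobase), iotaTry (−1.37) and betaTry (−2.08). Means are a poor guide for several of these genes, since alphaTry reached 6.97 in one library and −6.04 in another, whereas iotaTry stayed between −2.76 and −0.93. The plot of all members by library shows both kinds.

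**Figure D1:**
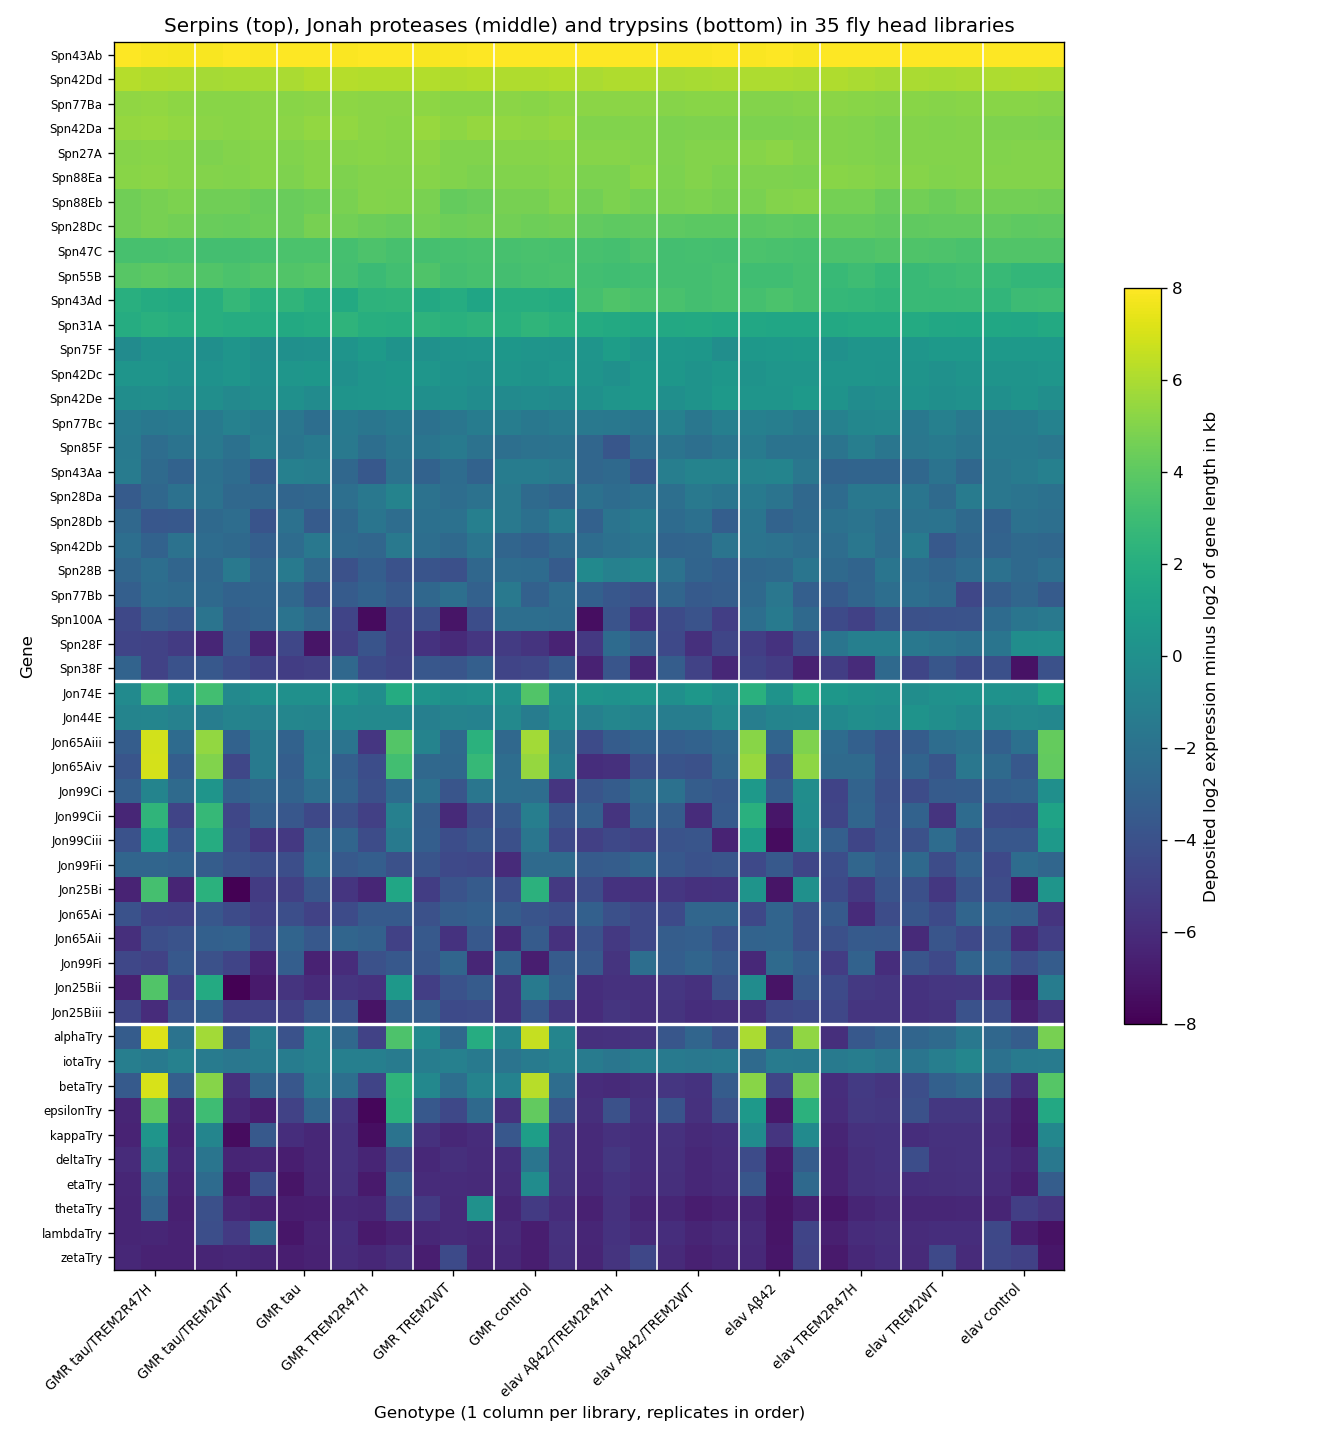
Deposited log2 expression minus log2 gene length in kilobases of the 26 serpins, 14 Jonah proteases and 10 trypsins (rows) in 35 libraries (columns, grouped by genotype with the 2 controls at the right of their driver set). The upper serpin rows are even across libraries, whereas alphaTry, betaTry, Jon65Aiii and Jon65Aiv are bright in single libraries of several genotypes.

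The families also differed in the spread between libraries of the same genotype. The SD within genotypes had a median of 0.199 over the 26 serpins, 1.38 over the 14 Jonah proteases and 1.71 over the 10 trypsins, against 0.119 over all 14279 genes. The largest value in the whole table belonged to epsilonTry (3.85), and betaTry (3.76), Jon65Aiv (3.67), alphaTry (3.67), Jon65Aiii (3.48) and Jon25Bi (3.34) stood at or above the 99.9th percentile of all genes. Jon44E (0.253) and iotaTry (0.339) were the steadiest of their families.

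**Figure D2:**
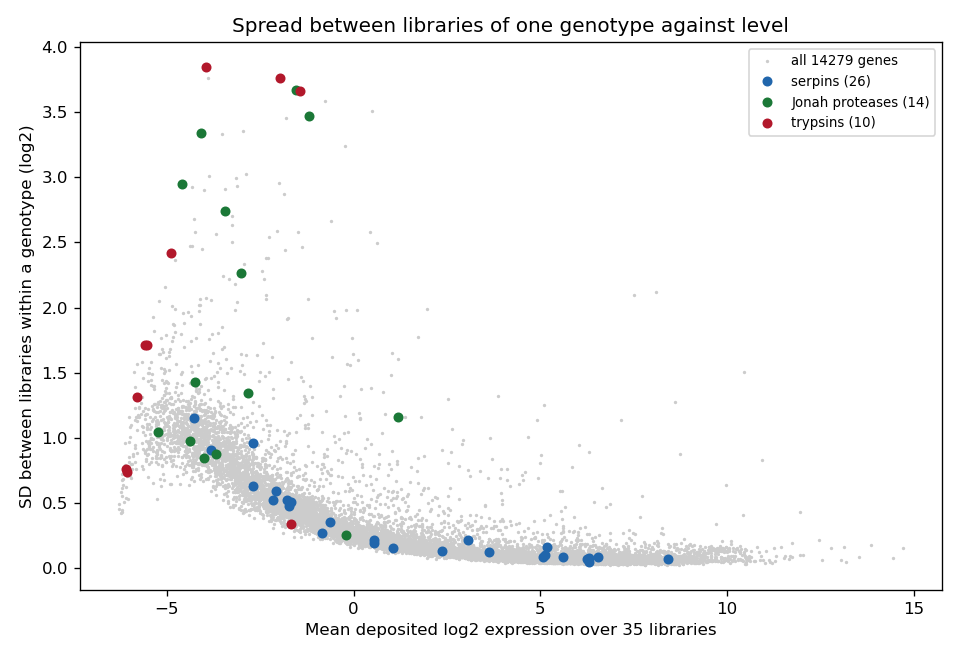
SD between libraries of one genotype (y axis, log2) against mean deposited log2 expression over 35 libraries (x axis) for all 14279 genes (grey) and the 3 families (coloured points). Serpins with a mean above 5 lie at an SD of 0.0427 to 0.157, whereas alphaTry, betaTry, epsilonTry, Jon65Aiii and Jon65Aiv lie at 3.48 to 3.85.

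Across the 19 comparisons of 2 genotypes, 15 of the 50 members were called at least once: 14 serpins, 1 trypsin and no Jonah protease. These made 46 calls in 950 tests, 20 higher and 26 lower in the genotype named first. Of all genes, 1.64% to 24.7% were called in each of the 19 comparisons, and these shares stand beside the member counts below. Spn55B and Spn43Aa were called in 7 comparisons each, Spn100A in 6, Spn43Ad and Spn28F in 4 each, and lambdaTry and Spn28B in 3 each. Many comparisons share a control group, so their calls are not independent. Of the 46 calls, 31 held on leaving out any 1 library and 15 were lost in at least 1 such fit.

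Several serpins differed between the Aβ42 genotypes and the elav control. In Aβ42 flies 4 of 50 members were called (8%), against 6.1% of all genes, with Spn43Ad, Spn55B and Spn88Eb higher and Spn28F lower. In Aβ42/TREM2WT flies 5 were called (10%), against 8.66% of all genes: Spn43Ad and Spn55B were higher and Spn28F, Spn100A and Spn47C lower. In Aβ42/TREM2R47H flies 7 were called (14%), against 10.5% of all genes, with Spn43Ad, Spn55B and Spn28B higher and Spn28F, Spn100A, Spn43Aa and Spn85F lower. Over all 50 members these shares are near those of all genes. All the calls were serpins, 4, 5 and 7 of the 26, so the share among serpins alone was higher than among all genes. That share leaves out the Jonah proteases and trypsins, whose median SDs within genotypes were 1.38 and 1.71, against 0.199 for serpins. Whether serpins as a family stand out was not tested, and what follows describes single members. The Spn88Eb difference in Aβ42 flies, 0.40 (SE 0.13, limma adjusted p 0.0464), was lost on leaving out any 1 of 22 libraries (adjusted p up to 0.179) and with a block for replicate number (adjusted p 0.0635). Without elav control replicates 1 and 2, a choice made after seeing the data that leaves 1 control library, assumed to vary like the other groups, it had an adjusted p of 0.307, and 3, 4 and 5 members were called in Aβ42, Aβ42/TREM2WT and Aβ42/TREM2R47H flies. All calls of Spn55B, Spn43Ad and Spn28F against the elav control held there. The Spn47C difference in Aβ42/TREM2WT flies, −0.39 (SE 0.07, adjusted p 0.000415), was lost on the elav libraries alone (adjusted p 0.0777).

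Spn55B was higher in all 3 Aβ42 genotypes and in all 3 tau genotypes than in the control of the same driver. At equal RIN it was at 3.47, 3.51 and 3.59 in Aβ42 flies, against 3.12, 3.03 and 3.06 in elav controls. The lowest Aβ42 library was therefore above the highest control. The difference was 0.45 (SE 0.07), a fold of 1.37, with an adjusted p of 0.000116 in limma. In Aβ42/TREM2WT flies it was 0.49 (SE 0.08), and in Aβ42/TREM2R47H flies 0.42 (SE 0.07). Fitted on the elav libraries alone, the Aβ42/TREM2WT difference was 0.39 with an adjusted p of 0.0659, no longer past the threshold.

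In the GMR set Spn55B was at 4.22 and 4.13 in tau flies, against 3.55, 3.71 and 3.74 in GMR controls. The tau libraries again lay above every control, by 0.51 (SE 0.08) between means, with a limma adjusted p of 0.000233. The differences were 0.44 (SE 0.08) in tau/TREM2WT flies and 0.58 (SE 0.07) in tau/TREM2R47H flies. Without the RIN covariate the tau/TREM2WT difference was 0.26 with an adjusted p of 0.0905. All 6 Spn55B calls against controls held on leaving out any 1 library.

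With TREM2 and TYROBP alone Spn55B was not called. In GMR flies the difference was 0.00 (95% interval −0.15 to 0.16) for TREM2WT and −0.06 (−0.24 to 0.11) for TREM2R47H, and in elav flies 0.21 (0.06 to 0.37, adjusted p 0.0997) and 0.08 (−0.08 to 0.24). Nor did adding TREM2 to Aβ42 or to tau move it past the threshold, with differences between −0.07 and 0.07 over the 4 comparisons. The gene lies on 2R at BDGP6 positions 18126347 to 18128210, plus strand, and its exons overlap no other annotated gene.

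Spn43Ad was higher in the Aβ42 genotypes. It was at 3.87, 3.94 and 3.92 in Aβ42 flies, against 3.09, 3.33 and 3.42 in elav controls. The groups did not overlap, and the difference was 0.63 (SE 0.10), a fold of 1.55, with an adjusted p of 6.62e-05 in limma. Aβ42/TREM2WT flies, at 4.04, 3.90 and 3.99, and Aβ42/TREM2R47H flies, at 3.87, 4.06 and 4.03, were higher than the same controls by 0.70 (SE 0.10) and 0.71 (SE 0.10). Without the RIN covariate the Aβ42 and Aβ42/TREM2WT differences were 0.52 and 0.45, with adjusted p of 0.0533 and 0.0665. In tau flies Spn43Ad was 0.16 above the GMR control (95% interval −0.07 to 0.39), a difference that did not pass the test, and whether Aβ42 and tau differ in this was not tested.

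**Figure D3:**
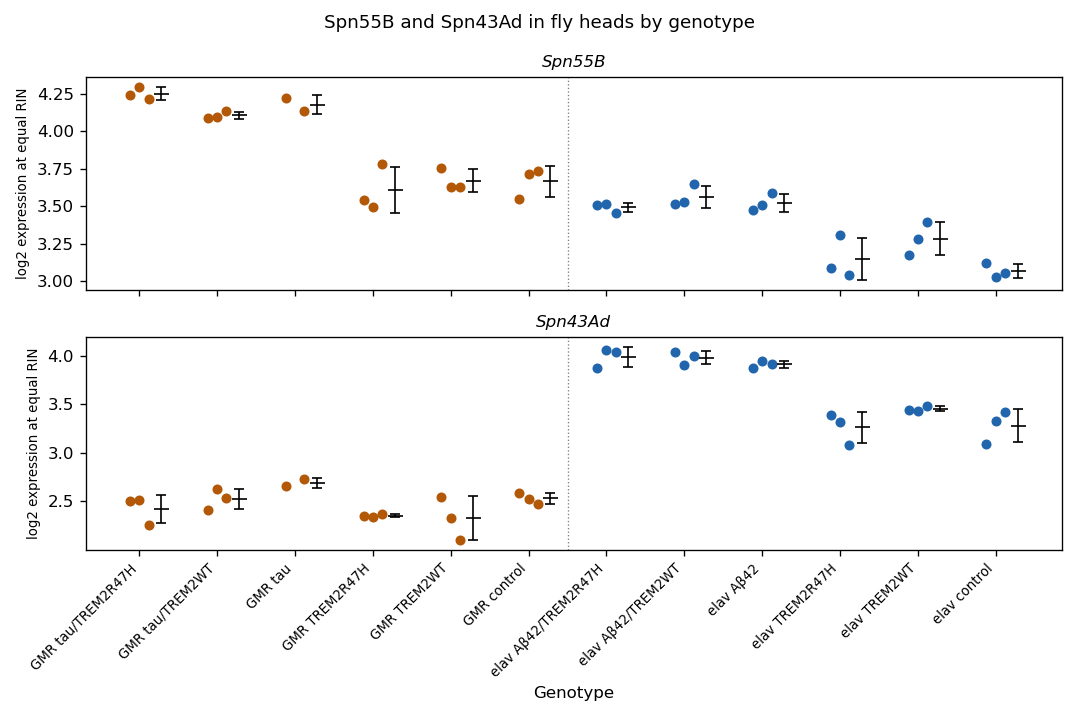
log2 expression at equal RIN of Spn55B (top) and Spn43Ad (bottom) in the 12 genotypes (x axis), GMR in orange and elav in blue, with each point a library and black bars the mean and SD. Spn55B is at 4.13 and 4.22 in GMR tau flies and 3.55 to 3.74 in GMR controls, and Spn43Ad is at 3.87 to 3.94 in elav Aβ42 flies and 3.09 to 3.42 in elav controls.

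Spn43Ad sits in a run of serpins on 2R, and in Aβ42 flies its neighbours were not called. In BDGP6, Spn43Aa lies at 7147692 to 7149289 on the plus strand. Spn43Ab (7151662 to 7153642) and Spn43Ad (7153738 to 7155424) lie on the minus strand inside an intron of prickle (pk), and necrotic, which restrains Toll activation, is the other serpin gene of this run. In Aβ42 flies Spn43Aa differed from control by 0.35 (SE 0.40), Spn43Ab by −0.14 (SE 0.05) and nec by −0.02 (SE 0.05), and none of these was called. Spn43Aa has 116 exonic bases in common with CG12828 on the other strand, and the counting is not stated to use strand, so reads from the 2 cannot be told apart there.

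Spn43Aa was lower in several TREM2/TYROBP genotypes, at a low level throughout. In GMR flies it was at −2.23, −3.64 and −2.06 with TREM2R47H, and −2.25, −2.08 and −2.45 with TREM2WT, against −0.86, −0.87 and −1.09 in GMR controls. All 6 TREM2 libraries were below all 3 controls, by −1.71 (SE 0.46, limma adjusted p 0.0200) for TREM2R47H and −1.32 (SE 0.40, adjusted p 0.0419) for TREM2WT. Both calls were lost on the GMR libraries alone (adjusted p 0.137 and 0.168). The TREM2WT call was also lost on leaving out any 1 of its 6 libraries (adjusted p up to 0.132), and the TREM2R47H call without GMR control replicate 1 or 2 or TREM2R47H replicate 2 (up to 0.0546).

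In tau/TREM2WT flies Spn43Aa was at −1.77, −2.44 and −3.17, against −0.93 and −0.70 in tau flies. The difference was −1.64 (SE 0.45, limma adjusted p 0.0354), and against the GMR control it was −1.52 (SE 0.45, adjusted p 0.0328). The first call was lost without either tau library or tau/TREM2WT replicate 2 or 3 (adjusted p up to 0.275), and the second without any 1 GMR control or tau/TREM2WT replicate 3 (up to 0.240). Both calls were also lost without the RIN covariate and on the GMR libraries alone. In tau/TREM2R47H flies it was −1.08 (95% interval −2.01 to −0.15) relative to tau flies, with an adjusted p of 0.207.

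In the elav set the TREM2 variants differed in flies with Aβ42, and whether this difference depends on Aβ42 was not tested. Spn43Aa was at −2.26, −2.20 and −3.16 in Aβ42/TREM2R47H flies, against −0.66, −0.29 and −0.35 in Aβ42/TREM2WT flies. Every TREM2R47H library was lower, by −2.10 (SE 0.40) with an adjusted p of 0.00324 in limma. Relative to Aβ42 flies, at −0.45, −0.43 and −1.2, the difference was −1.84 (SE 0.40, adjusted p 0.00290) with TREM2R47H and 0.26 (SE 0.40, adjusted p 0.804) with TREM2WT. Both called differences held on leaving out any 1 library, whereas that of Aβ42/TREM2R47H from the elav control, −1.49 (SE 0.40, adjusted p 0.01), was lost without Aβ42/TREM2R47H replicate 3 (adjusted p 0.0666) and without elav control replicates 1 and 2 together (adjusted p 0.0709). Without Aβ42, Spn43Aa differed from elav controls by −1.31 (SE 0.42, adjusted p 0.0598) with TREM2R47H and −0.86 (SE 0.41, adjusted p 0.254) with TREM2WT, and neither was called. The test of whether Aβ42 changed the effect of TREM2WT gave 1.12 (SE 0.56, adjusted p 0.731).

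Spn100A, on 3R at 30690642 to 30692768 (plus strand, no exon in common with another gene), was called lower in TREM2/TYROBP genotypes of both driver sets. It was at −3.66, −4.15 and −2.93 in elav TREM2R47H flies and at −3.14, −3.15 and −3.12 in elav TREM2WT flies, against −1.45, −0.51 and −0.27 in elav controls. None of the 6 TREM2 libraries reached the lowest control. The difference was −2.84 (SE 0.81, limma adjusted p 0.0326) with TREM2R47H and −2.39 (SE 0.79, adjusted p 0.0736) with TREM2WT. With Aβ42 it was −3.98 (SE 0.77, adjusted p 0.000579) for Aβ42/TREM2R47H and −2.88 (SE 0.81, adjusted p 0.0157) for Aβ42/TREM2WT relative to elav controls, whereas Aβ42 flies, at −1.26, −0.38 and −1.64, did not differ past the threshold (−0.35, 95% interval −1.94 to 1.24). Relative to Aβ42 flies the difference was −3.63 (SE 0.76, adjusted p 0.00236) for Aβ42/TREM2R47H and −2.53 (SE 0.77, adjusted p 0.0566) for Aβ42/TREM2WT.

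In GMR flies Spn100A was at −3.85, −5.76 and −2.97 with TREM2R47H and −3.71, −5.94 and −3.43 with TREM2WT, against −1.35, −1.26 and −1.46 in GMR controls. The groups did not overlap, and the differences were −2.84 (SE 0.88, limma adjusted p 0.0418) and −3.00 (SE 0.76, adjusted p 0.0159). With tau the pattern was uneven. Spn100A was at −3.36, −2.45 and −2.62 in tau/TREM2R47H flies and at −0.61, −1.42 and −1.76 in tau/TREM2WT flies, against −0.36 and −1.72 in tau flies, and neither difference from tau flies was called (−1.77, 95% interval −3.55 to 0.01, and −0.22, −2.01 to 1.56). The test of whether tau changed the effect of TREM2WT gave 2.78 (SE 1.16, p 0.0254, adjusted p 0.281 in limma).

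These Spn100A calls differed in how firmly they stood. Both Aβ42/TREM2R47H calls held on leaving out any 1 library. The Aβ42/TREM2WT call was lost without elav control replicate 3 or Aβ42/TREM2WT replicate 3 (adjusted p up to 0.0675), and the GMR TREM2WT call without GMR control replicate 1 or TREM2WT replicate 2 (up to 0.144). The elav TREM2R47H call was lost in 5 of the 35 such fits (up to 0.116), among them those without elav control replicate 2 or 3 or elav TREM2R47H replicate 1 or 2, and the GMR TREM2R47H call in 12 (up to 0.110). Without elav control replicates 1 and 2 together, the elav TREM2R47H and Aβ42/TREM2WT differences were −3.38 and −3.43 (adjusted p 0.125 and 0.0839). The GMR TREM2R47H call was also lost with a block for replicate number (adjusted p 0.0587). On the elav libraries alone, where RIN and TREM2 genotype did not overlap with control, the difference shrank to −0.61 (adjusted p 0.843) for TREM2R47H and −0.65 (adjusted p 0.752) for Aβ42/TREM2WT. The GMR differences on GMR libraries alone were −2.48 (adjusted p 0.148) for TREM2R47H and −3.06 (adjusted p 0.0520) for TREM2WT. The part of RIN in these results was not tested beyond this.

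Spn28F was lower in the Aβ42 genotypes. It was at −4.65, −5.52 and −3.66 in Aβ42 flies, against −1.39, −0.26 and −0.21 in elav controls. The difference was −3.99 (SE 0.65, limma adjusted p 0.000120), and it was −3.65 (SE 0.68, adjusted p 0.000483) in Aβ42/TREM2WT and −2.67 (SE 0.65, adjusted p 0.00480) in Aβ42/TREM2R47H flies, with no library of these 3 genotypes above the lowest control. The elav TREM2R47H flies (−1.02, −0.28 and −0.55) and TREM2WT flies (−1.05, −1.17 and −1.45) stayed at or near the control level. On the elav libraries alone the Aβ42/TREM2WT and Aβ42/TREM2R47H differences were −2.78 (adjusted p 0.144) and −2.20 (adjusted p 0.0719).

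In the 6 GMR genotypes Spn28F ran from −6.54 to −4.18, with no call among them. GMR controls, at −4.68, −5.17 and −5.85, were below elav controls by −4.61 (SE 0.66, adjusted p 4.58e-06). Spn28F lies on 2L at 8240414 to 8241800, minus strand. A neighbouring gene, CR43262, singled out after its values were seen, had a like pattern: it differed from elav controls by −2.37 (SE 0.66, adjusted p 0.0186) in Aβ42 flies, −2.12 (SE 0.69, adjusted p 0.0397) in Aβ42/TREM2WT flies and −1.19 (SE 0.66, adjusted p 0.236) in Aβ42/TREM2R47H flies. GMR controls were below elav controls in it by −2.83 (SE 0.67, adjusted p 0.00158). The neighbour Pvr, a receptor tyrosine kinase gene, differed from the elav control by 0.03 (SE 0.02) in Aβ42 flies and was not called. The insertion of UAS-Aβ42 and its product cannot be told apart here.

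**Figure D4:**
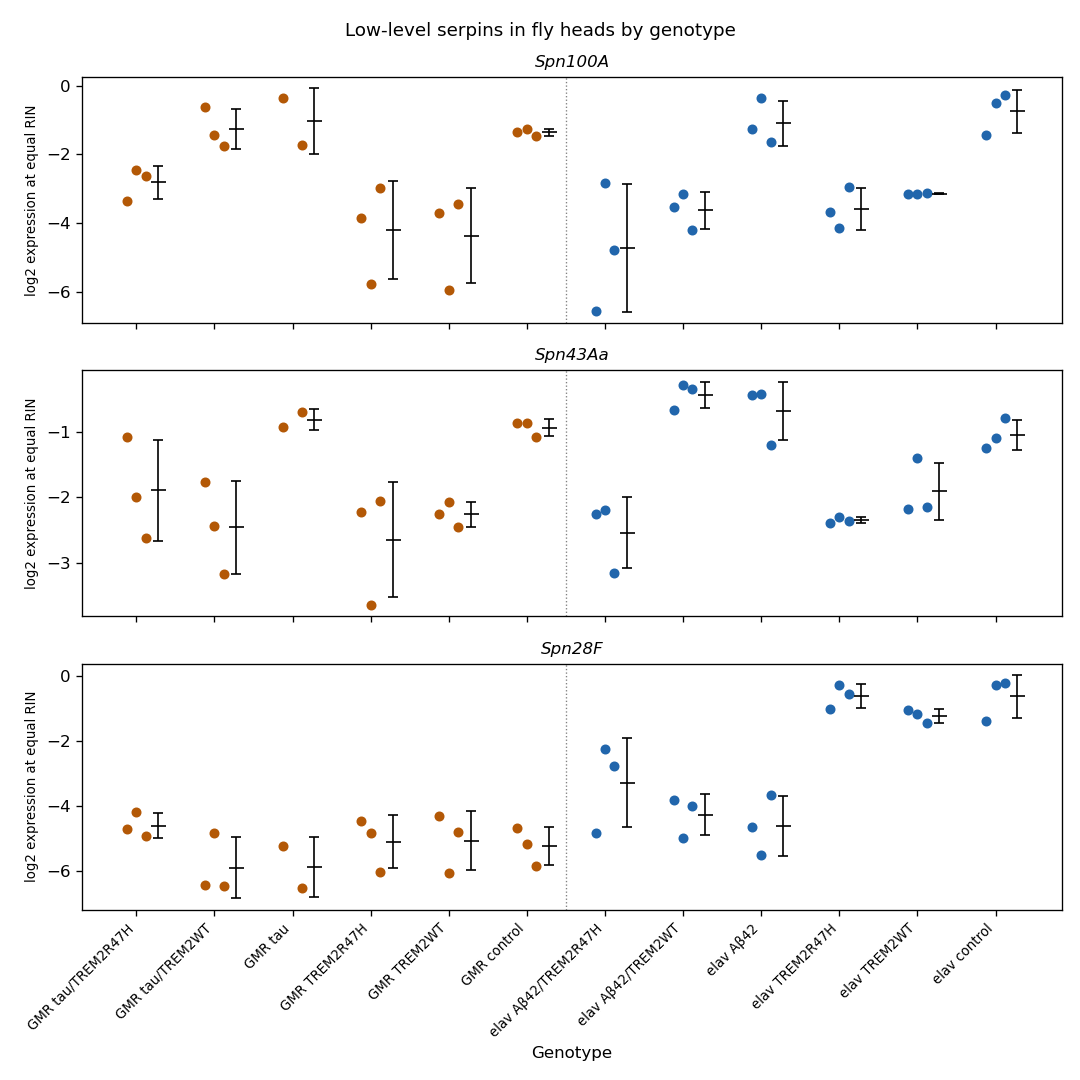
log2 expression at equal RIN of Spn100A, Spn43Aa and Spn28F (panels from top) in the 12 genotypes, GMR in orange and elav in blue, with each point a library and black bars the mean and SD. Spn100A is low in TREM2/TYROBP genotypes except GMR tau/TREM2WT, and Spn28F is above −1.5 only in the elav control, TREM2WT and TREM2R47H libraries.

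With TREM2 and TYROBP alone, in elav TREM2R47H flies 1 of 50 (2%) was called, against 4.41% of all genes, and in elav TREM2WT flies 0, against 4.01% of all genes, where limma gave an unadjusted p under 0.05 for 5 members and trend and robust settings called 1. In GMR TREM2R47H flies 3 (6%) were called, against 5.76% of all genes, and in GMR TREM2WT flies 2 (4%), against 4.69%. The third GMR TREM2R47H call was Spn42De, at 0.77, 0.79 and 0.90 in TREM2R47H flies, against 0.15, 0.31 and 0.14 in GMR controls. It was higher by 0.62 (SE 0.18, adjusted p 0.0289), a call lost without GMR control replicate 1 or 3 or TREM2R47H replicate 1 (adjusted p up to 0.0839). The effects of TREM2WT and of TREM2R47H were also compared between drivers. Here 0 members had a limma adjusted p under 0.05, against 260 and 67 of all 14279 genes. In each, 4 members had an unadjusted p under 0.05.

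In the tau genotypes 2 members were called in tau flies (4%, against 5.32% of all genes), 4 in tau/TREM2WT flies (8%, against 5.7%) and 2 in tau/TREM2R47H flies (4%, against 7.95%). Beside Spn55B and Spn43Aa, Spn28Db was at −2.48, −2.82 and −3.82 in tau/TREM2WT flies and −2.49, −3.20 and −3.36 in tau/TREM2R47H flies, against −1.13, −1.76 and −0.91 in GMR controls. It was lower in every library, by −1.77 (SE 0.50, limma adjusted p 0.0240) and −1.75 (SE 0.44, adjusted p 0.00676). Tau flies, at −2.27 and −2.99, and GMR TREM2R47H flies, at −2.26, −2.24 and −2.83, were also below all 3 controls, but these differences, −1.37 (SE 0.51, adjusted p 0.0977) and −1.18 (SE 0.51, adjusted p 0.147), were not called. The tau/TREM2WT call was lost without GMR control replicate 1 or 3 or tau/TREM2WT replicate 3 (adjusted p up to 0.194), and without the RIN covariate (−1.24, adjusted p 0.107). The same call was also lost on the GMR libraries alone. Spn31A was lower in tau flies by −0.39 (SE 0.11, adjusted p 0.0240), a call lost without GMR control replicate 2 or either tau library (adjusted p up to 0.270). The Spn31A call was also lost on the GMR libraries alone.

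In Aβ42/TREM2R47H relative to Aβ42 flies 4 members were called (8%, against 6.16% of all genes): Spn28B higher, and Spn85F, Spn100A and Spn43Aa lower. In Aβ42/TREM2WT relative to Aβ42 flies 0 were called, against 3.1% of all genes, with 8 at an unadjusted p under 0.05 in limma and 1 called with trend and robust settings. In tau/TREM2WT relative to tau flies 2 were called (4%, against 3.19%), and in tau/TREM2R47H relative to tau flies 0, against 3.48%, with 5 at an unadjusted p under 0.05 and 0 called with trend and robust settings.

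Spn28B was raised in Aβ42/TREM2R47H flies. It was at −0.01, −0.70 and −0.34 there, against −2.30, −2.28 and −1.36 in Aβ42 flies. All 3 libraries were above every Aβ42 library, by 1.63 (SE 0.41, limma adjusted p 0.00953). Relative to Aβ42/TREM2WT flies, at −1.52, −2.36 and −2.76, the difference was 1.87 (SE 0.41, adjusted p 0.0125), and relative to elav controls 1.64 (SE 0.42, adjusted p 0.00640), a call lost without elav control replicates 1 and 2 together (adjusted p 0.107). The call against Aβ42/TREM2WT was lost without Aβ42/TREM2WT replicate 2 or 3 or Aβ42/TREM2R47H replicate 1 (adjusted p up to 0.0675). Spn85F was at −1.55, −2.49 and −1.2 in Aβ42/TREM2R47H flies, against −0.17, −0.65 and −0.73 in Aβ42 flies, a difference of −1.23 (SE 0.28, adjusted p 0.00429), and it was lower than in elav controls by −1.48 (SE 0.28, adjusted p 0.000471). It has 273 exonic bases in common with CG5359 on the other strand, so its reads are uncertain there.

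The comparison of the TREM2 variants gave 0 calls in elav flies (against 1.88% of all genes, with 1 member at an unadjusted p under 0.05 in limma) and 0 in GMR flies (against 1.77%, with 3), and 0 in both with trend and robust settings. With Aβ42 it gave 2, Spn28B and Spn43Aa (4%, against 1.64% of all genes), and with tau 1, lambdaTry (2%, against 2.07%). No member was called in the 4 tests of whether Aβ42 or tau changed the effect of TREM2. These tests called 0.238% and 0.672% of all genes for TREM2WT and TREM2R47H with Aβ42, and 0.357% and 0.175% with tau. Unadjusted p under 0.05 was reached by 1 and 7 members with Aβ42 and by 7 and 4 with tau, and trend and robust settings called 0 in each.

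Between GMR and elav controls 7 members were called (14%), against 24.7% of all genes, in a comparison that also differs in roX1 and the yolk protein genes. Spn42Da, at 6.80, 6.71 and 6.85 in GMR controls, against 6.32, 6.39 and 6.31 in elav controls, was higher by 0.45 (SE 0.04, limma adjusted p 2.02e-08). Spn55B (0.60, SE 0.07), Spn31A (0.62, SE 0.10) and Spn28Dc, a regulator of melanization (0.38, SE 0.05), were also higher, and Spn43Ad (−0.75, SE 0.10), Spn47C (−0.28, SE 0.07) and Spn28F lower. In the 6 control libraries alone Spn43Ad and Spn28F were still called (adjusted p 0.0476 and 0.0397), whereas Spn42Da, Spn47C, Spn55B, Spn28Dc and Spn31A were not (adjusted p 0.0557 to 0.0971). The third call there was another member, lambdaTry (−2.03, adjusted p 0.042), which over all 35 libraries differed by −0.34 (adjusted p 0.669).

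All 19 listed genes of the Toll and melanization cascade were in the table. Against the elav control, Aβ42 flies had 0 higher and 3 lower of the 19, against 6.1% of all genes called, with a median difference of −0.06 over the list and −0.01 over all genes. The 3 were SPE, the protease that processes the Toll ligand (−0.36, SE 0.05), and the prophenoloxidase genes PPO1 (−1.27, SE 0.18) and PPO2 (−1.27, SE 0.14). Aβ42/TREM2WT flies had the same 3 lower, against 8.66% of all genes called. Aβ42/TREM2R47H flies had PPO2 (−0.82, SE 0.14) and the antifungal peptide gene Drs (−1.51, SE 0.53) lower, against 10.5% of all genes called. Relative to Aβ42 flies, Aβ42/TREM2R47H flies had 4 higher and 0 lower of the 19, against 6.16% of all genes called and with medians of 0.07 over the list and 0.01 over all genes. They were PPO1 (0.78, SE 0.17), PPO2 (0.45, SE 0.13), SPE (0.32, SE 0.05) and ea (0.28). Aβ42/TREM2WT flies had PPO1 higher (0.66) than Aβ42 flies. SPE was also higher in Aβ42/TREM2R47H than in Aβ42/TREM2WT flies (0.33).

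In the GMR set, tau and tau/TREM2R47H flies had none of the 19 called against control, where 5.32% and 7.95% of all genes were called. Tau/TREM2WT flies had grass higher (0.31) and PPO1 (−0.86) and PPO2 (−0.78) lower, 3 of 19 against 5.7% of all genes. TREM2R47H flies had PPO2 lower (−0.54), against 5.76% of all genes called. The TREM2WT flies of both drivers and the elav TREM2R47H flies had 0 called. Tau/TREM2R47H flies had SPE (0.29), PPO2 (0.62) and PPO1 (0.91) higher than tau/TREM2WT flies, 3 of 19 against 2.07% of all genes, and SPE (0.28) higher than tau flies, and tau/TREM2WT flies had MP1 lower than tau flies (−0.26). Between GMR and elav controls 3 were higher (MP1, Hayan and psh) and 3 lower (SPE, PPO2 and spirit), where 24.7% of all genes were called. The TREM2R47H effect differed between flies with and without Aβ42 in PPO1 (1.14, SE 0.25, limma adjusted p 0.0321) and PPO2 (0.88, SE 0.20, adjusted p 0.0338). The abundant serpins Spn27A and Spn77Ba were called in none of the 19 comparisons of 2 genotypes. Spn77Ba did reach a limma adjusted p of 0.000518, but with a fold change not above 1.2, whereas the smallest for Spn27A was 0.212.

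Of 6 hemocyte markers, all in the table, NimC1, a phagocytosis receptor gene, differed in both directions. It was lower than in the elav control in all 5 other elav genotypes (−0.94 to −0.40), and lower than in the GMR control by −2.07 in TREM2WT flies and −2.17 in TREM2R47H flies, but higher by 0.77 (SE 0.13, limma adjusted p 0.000312) in tau flies. Of the other 5 markers, against the control of the same driver, eater was lower in Aβ42 (−0.46), Aβ42/TREM2WT (−0.40) and tau/TREM2WT flies (−0.46). Pxn was lower in Aβ42/TREM2WT flies (−0.29). In TREM2R47H flies He was higher and srp lower in both driver sets (0.76 and −0.37 in elav, 0.76 and −0.32 in GMR). In GMR TREM2WT and tau flies 0 of these 5 were called. The summed level of the 6 markers on the log2 scale was 9.45 to 9.57 in Aβ42 flies, against 9.72 to 9.77 in elav controls. In GMR flies it was 9.83 to 9.99 with tau, 9.48 to 9.57 with TREM2R47H and 9.64 to 9.82 with TREM2WT, against 9.77 to 9.85 in controls. The part of hemocytes in the serpin results was not tested.

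Markers of other cell types also moved with genotype. Of 4 muscle markers, Act88F, up and Mhc were called lower in all 3 tau genotypes than in GMR controls (in tau flies −1.71, −0.37 and −0.55), with a summed log2 level of 10.6 to 10.7 in tau flies, against 11.2 to 11.4 in controls. Of 6 photoreceptor markers only ninaE was called there, lower by −0.53 in tau flies, with sums of 14.4 to 14.6 in tau flies and 14.9 in every control. Of 6 fat body markers, 5 of them in the table, tau/TREM2WT flies had to lower (−1.52) and Lsp2 higher (1.17) than tau flies, with sums of 9.36 to 9.61 in tau/TREM2WT flies and 9.29 to 9.97 in tau flies. In Aβ42 flies fit was higher (0.44) and to (−0.88) and Lsp2 (−1.34) lower than in elav controls, with sums of 8.82 to 9.0 in Aβ42 flies and 9.09 to 9.18 in elav controls. These sums, like that of the hemocyte markers, were made from deposited values, whereas the called differences come from the model with RIN. At equal RIN the mean of the fat body marker fit was 8.63 in tau flies and 8.72 in tau/TREM2WT flies. The part of these cell types in the member calls of the same comparisons was not tested.

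Among the proteases only lambdaTry was called. It was at −3.94, −4.22 and −2.23 at equal RIN in tau/TREM2WT flies, against −6.43 and −6.65 in tau flies and −6.37, −6.80 and −5.96 in GMR controls. The 3 libraries lay above all 5 of these, by 3.07 (SE 0.61, limma adjusted p 0.00250) over tau flies and 2.91 (SE 0.60, adjusted p 0.00216) over GMR controls, and tau/TREM2R47H flies were lower than tau/TREM2WT flies by −2.99 (SE 0.58, adjusted p 0.00382). These are values close to the floor. With 1 added to the linear values the differences were 0.11, 0.12 and −0.12, and with trend and robust settings of limma the adjusted p were 0.0918, 0.0794 and 0.0965. The call between the variants was lost without tau/TREM2WT replicate 3 (adjusted p 0.0508).

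The other proteases varied widely between libraries of 1 genotype. The deposited alphaTry value was 6.97 in tau/TREM2R47H replicate 2, against −3.55 and −2.15 in the other 2 libraries of that genotype. It was 5.58 in tau/TREM2WT replicate 1 and 3.31 in GMR TREM2R47H replicate 3, with −3.92 and −1.38, and −2.84 and −5.04, in their partners. GMR control replicate 2 was at 6.38, with −1.01 and −0.93 in replicates 1 and 3. In each of these genotypes 1 library of 3 was high.

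In the elav set alphaTry was at 5.78 and 5.13 in Aβ42 replicates 1 and 3 and −4.15 in replicate 2, and at 4.50 in control replicate 3 with −2.88 and −3.53 in the other controls. It was at or below −1.79 in all 12 libraries of the 4 elav genotypes with TREM2/TYROBP. The next highest of the 35 libraries after these 7 was GMR TREM2WT replicate 3, at 1.67. High values thus occurred in both driver sets, in both controls and in 4 of the 10 other genotypes.

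The same 7 libraries were the 7 highest for 5 of 10 trypsins, counting alphaTry itself (alphaTry, betaTry, epsilonTry, kappaTry and etaTry), and for 6 of 14 Jonah proteases (Jon65Aiii, Jon65Aiv, Jon74E, Jon25Bi, Jon99Cii and Jon99Ciii). No serpin shared more than 4 of them. Of all 14279 genes, 78 (0.546%) had the same 7 libraries highest. Jon74E showed the step plainly, at 1.99 to 4.26 in these libraries and 0.14 to 1.09 in the other 28, while Jon44E, iotaTry, Jon65Ai and Jon99Fi shared none of the 7. Members of 1 cluster could differ: lambdaTry and zetaTry, on 2R between 11336840 and 11340132 beside alphaTry and betaTry, shared 2 and 1 of the 7.

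**Figure D5:**
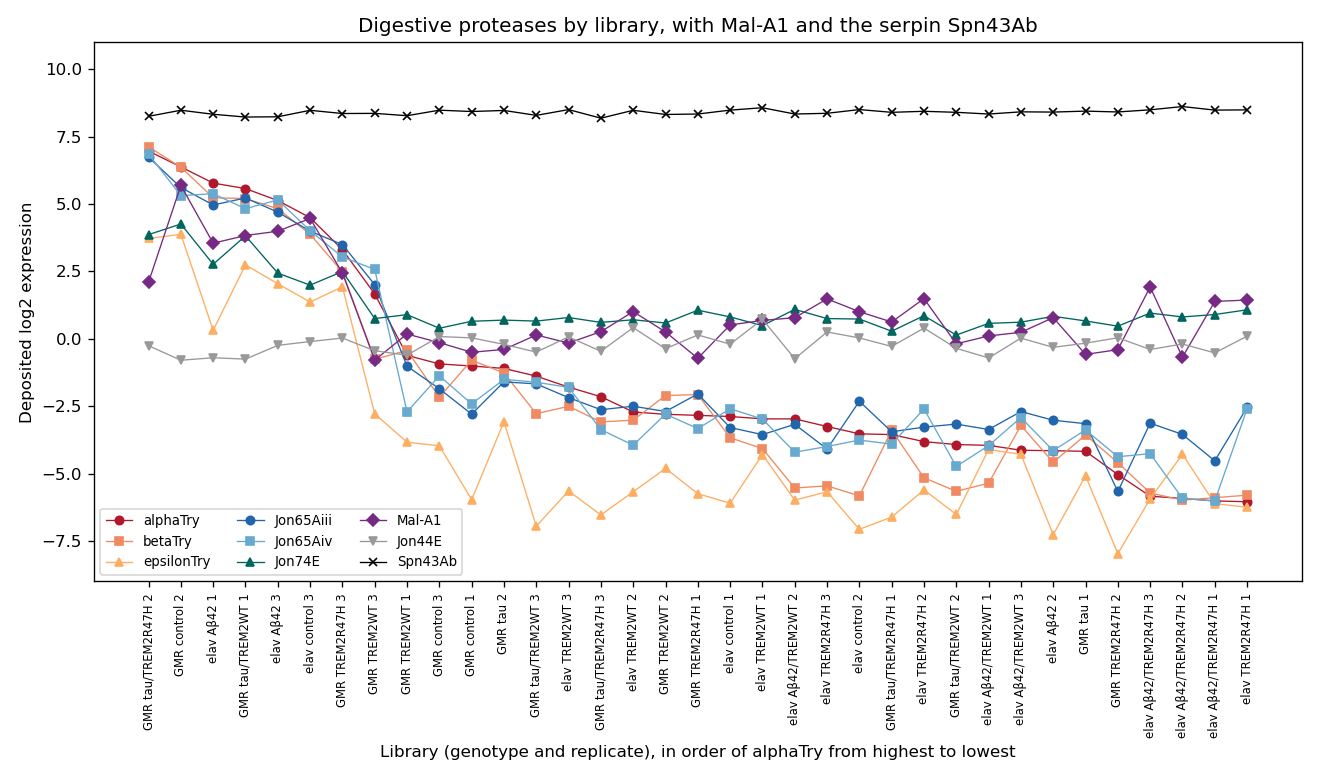
Deposited log2 expression (y axis) of 3 trypsins, 4 Jonah proteases, the maltase Mal-A1 and the serpin Spn43Ab in the 35 libraries (x axis), ordered by alphaTry from highest to lowest. The 7 libraries at the left are the 7 highest for each protease other than Jon44E. From the seventh to the eighth highest library the step is small for Jon65Aiv (3.04 to 2.58) and larger for betaTry (2.49 to −0.43). Jon44E and Spn43Ab (8.19 to 8.62) stay level.

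Digestive genes outside these families were read in the same libraries. Of 21 listed gut genes, all in the table, Mal-A1, a maltase, had the same 7 libraries highest (2.10 to 5.69, with 1.93 in the eighth), 4 shared at least 6 and 7 shared at least 5, while the amylase gene Amy-p shared 4. The summed level of the 21 genes, on the log2 scale, was 8.23, 7.98 and 8.23 in Aβ42 flies and 8.07, 8.12 and 8.62 in elav controls, and 7.83, 8.70 and 7.77 in GMR controls, and it ran from 7.58 to 8.70 over the 35 libraries. TpnC4, a muscle troponin gene, had the same 7 libraries highest as well, while Mhc, the muscle myosin heavy chain, shared 1. RIN was 5.6 to 7.0 in these 7 libraries, within the range of the others. The part of gut RNA in these values was not tested. Among the 21 gut genes the called differences were these: mag was higher in GMR TREM2R47H than in GMR TREM2WT flies (2.35), and Mal-A5 (0.43) was higher and mag (−2.27), Mal-A7 (−2.52) and Amy-d (−1.44) lower in GMR than in elav controls. Mal-A5 also passed the test of whether Aβ42 changed the effect of TREM2R47H (0.27, SE 0.05, limma adjusted p 0.0114).

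This spread set what the comparisons could show. Between 2 genotypes, standard errors of protease differences reached 3.79 on the log2 scale (epsilonTry). The largest of the members' differences was that of alphaTry in Aβ42/TREM2R47H flies, at −6.02, −5.92 and −5.84, against 5.78, −4.15 and 5.13 in Aβ42 flies, a difference of −8.26 (SE 2.92, 95% interval −14.29 to −2.22, limma adjusted p 0.0651). Although no library overlapped, the difference did not pass in the fit over all 35 libraries. On the elav libraries alone its adjusted p was 0.0489, and it passed on leaving out GMR TREM2R47H replicate 3, tau/TREM2R47H replicate 2 or Aβ42 replicate 2 (adjusted p down to 0.0213). Between Aβ42 flies and elav controls alphaTry differed by 2.34 (SE 2.96, adjusted p 0.722), and by −0.95 without the 7 libraries.

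The serpin calls were also recomputed without the 7 libraries, a choice made after seeing the data that leaves 28 libraries and 1 Aβ42 library, which is assumed to vary like the other groups. The Spn100A calls in elav TREM2R47H, Aβ42/TREM2WT, GMR TREM2WT and GMR TREM2R47H flies then had adjusted p of 0.137, 0.0682, 0.0619 and 0.0990, with differences of −2.75, −2.80, −2.99 and −3.19. The Spn43Aa calls in GMR TREM2WT flies and in tau/TREM2WT flies against GMR controls and against tau flies had 0.0963, 0.106 and 0.0509. Spn28B and Spn85F in Aβ42/TREM2R47H against Aβ42 flies had 0.0762 and 0.133, and Spn31A in tau, Spn42De in GMR TREM2R47H and Spn88Eb in Aβ42 flies had 0.0886, 0.132 and 0.301. All Spn55B, Spn43Ad and Spn28F calls held.

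The median log2 difference of the Jonah proteases and trypsins was −1.77 and −1.26 in Aβ42/TREM2R47H relative to Aβ42 flies, and −1.52 and −1.58 in Aβ42/TREM2WT relative to Aβ42 flies, with a median of 0.01 and 0.00 over all genes. In tau/TREM2WT relative to tau flies the medians ran the other way, at 1.06 and 2.02. Of the 7 libraries high in alphaTry, 2 were among the 3 Aβ42 libraries and 1 among the 3 tau/TREM2WT libraries, and no gene but lambdaTry among the proteases was called. Related copies are a possible further limit on single names. Any reads common to alphaTry and betaTry, or to Jon99Cii and Jon99Ciii, could be assigned to either copy or dropped. The sequences of these genes were not compared here.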

How the data were processed

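RNA of adult heads was sequenced as 100-base single-end reads from ribosome-depleted total RNA. The deposited log2 values were made by the authors from STAR 2.5.0b alignments and featureCounts gene counts on BDGP6 with Ensembl gene models. Genes reaching 5 reads in 1 or more libraries were retained, TMM scaling was applied, and the effect of RIN was then removed. The deposited table holds log2 values only, so the depth of each library is unknown and no counting interval is given; the linear values summed to between 910670 and 2028100 per library.

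Genotypes were compared with limma 3.58.1 (R 4.3.3) in a linear model of genotype and RIN over all 35 libraries, with Benjamini-Hochberg adjustment over 14279 genes. Calls needed a fold change of more than 1.2 together with an adjusted p below 0.05, and tests of a difference between differences used only the adjusted p. Simulated data with known answers were used to check the fits. Python 3.11.15, numpy 2.4.6 and matplotlib 3.10.9 were used for annotation and plots. Full values were given for called members with the largest difference of a comparison, members called in 4 or more comparisons and the 3 highest of each family, with others added where they were called. The rule takes members by symbol alone, but the families and gene lists were chosen with earlier results of these data known. Alternatives were no RIN covariate, libraries of 1 driver only, a replicate block, median centring, 1 added to linear values, trend and robust settings, a mean log2 filter, a log2 threshold of 1, leaving out each library, and, chosen after seeing the data, leaving out the 7 libraries highest in alphaTry or the 2 elav control libraries highest in Yp1.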

Additional observations from a re-analysis of the deposited data

How the results depend on the processing

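Counts of called members depended on settings by a few genes. Without the RIN covariate they were 1 in elav TREM2WT, 2 in elav TREM2R47H and 2 in tau/TREM2WT flies against control, 1 in tau/TREM2WT against tau flies, 1 for GMR TREM2R47H against TREM2WT and 2 for the same with tau. With libraries of 1 driver only, and so fewer samples, they were 0 in elav TREM2R47H, 1 in Aβ42/TREM2WT, 0 in GMR TREM2WT, 1 in GMR TREM2R47H, 1 in tau and 2 in tau/TREM2WT flies, 1 in tau/TREM2WT against tau flies and 3 between controls. With genes of mean log2 of at least 0, which drops 34 members, they were 0 in elav TREM2R47H, 3 in Aβ42/TREM2WT, 2 in Aβ42/TREM2R47H, 0 in GMR TREM2WT, 1 in GMR TREM2R47H, 1 in tau/TREM2WT and 1 in tau/TREM2R47H flies. The same filter gave 0 for Aβ42/TREM2R47H against Aβ42 and against Aβ42/TREM2WT flies, 0 for tau/TREM2WT against tau flies and for the variants with tau, and 1 for the change of the TREM2R47H effect by Aβ42. With 1 added to linear values they were 2 in elav TREM2WT and 2 in elav TREM2R47H flies, 1 for Aβ42/TREM2WT against Aβ42, 1 for the elav variants, 1 for tau/TREM2WT against tau, 0 for the variants with tau and 1 for the change of the TREM2R47H effect by Aβ42. Trend and robust settings gave 1 in elav TREM2WT and 2 in elav TREM2R47H flies, 1 for Aβ42/TREM2WT against Aβ42, 1 for tau/TREM2WT against tau and 0 for the variants with tau. A log2 threshold of 1 gave 1 in Aβ42, 2 in Aβ42/TREM2WT, 0 in tau and 1 in tau/TREM2R47H flies and 1 between controls. Without the 7 libraries highest in alphaTry, chosen after seeing the data, they were 0 in elav TREM2R47H, 0 in GMR TREM2WT, 1 in GMR TREM2R47H and 1 in tau flies, 2 for Aβ42/TREM2R47H against Aβ42, 1 for the elav variants and 1 for tau/TREM2WT against tau, and the alphaTry difference of Aβ42 flies from elav controls turned to −0.95 (limma adjusted p 0.792). Without the 2 elav control libraries highest in Yp1, also chosen after seeing the data, they were 0 in elav TREM2R47H and 1 in GMR TREM2WT flies and 1 for tau/TREM2WT against tau flies, and the same alphaTry difference turned to −3.26 (limma adjusted p 0.832). Where fewer genes or samples do not account for a change, the cause was not tested. Median centring moved no count by over 1.5 times.

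Leaving out each library gave 0 to 1 in elav TREM2WT, 0 to 2 in elav TREM2R47H, 3 to 5 in Aβ42, 4 to 5 in Aβ42/TREM2WT and 7 in Aβ42/TREM2R47H flies. It gave 0 to 3 in GMR TREM2WT, 0 to 4 in GMR TREM2R47H, 1 to 3 in tau, 2 to 4 in tau/TREM2WT and 2 to 3 in tau/TREM2R47H flies, and 7 to 8 between controls. Adding TREM2WT or TREM2R47H to Aβ42 gave 0 to 1 and 4 to 7, and to tau 1 to 2 and 0. The variants gave 0 to 1 in elav, 1 to 3 with Aβ42, 0 to 1 in GMR and 0 to 1 with tau flies, and the 4 tests of a changed TREM2 effect 0, except 0 to 1 for TREM2R47H with Aβ42.

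Replicate numbers did not pair the libraries: residual correlations of same-numbered libraries ran from −0.359 to 0.463 (mean −0.0245), and 1 comparison had every pair over 0.1. With a replicate block 3 members were called in Aβ42 flies (4 without it) and 2 in GMR TREM2R47H flies (3 without it), and the other counts were equal.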
